A study of Rattus norvegicus with 4 samples.

Results

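Transcript levels of 32 genes of ribosome biogenesis and RNA polymerase I transcription were described in cultured neonatal rat ventricular cardiomyocytes with and without phenylephrine (PE), an agonist of alpha-1 adrenergic receptors that makes these cells grow without dividing. The genes were taken by name from the deposited annotation of 32883 genes, and each name had a single identifier, so no choice between copies was needed. The cells came from ventricles of Sprague-Dawley rats on postnatal day 2. They were plated for 1 h so that non-cardiomyocytes could attach and be left behind, and then grown in medium with fetal bovine serum, which both groups received. In 2 strand-specific, rRNA-depleted RNA-seq libraries the cells had received 20 µM PE for 24 h, and in 2 libraries they were labelled untreated. Groups follow the samples' own titles and treatment labels, although the treatment protocol is worded alike for all 4 samples. Whether replicates came from separate cultures is not stated, and every p-value here therefore rests on the spread between these 4 libraries, which may be technical.

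A ribosome begins in the nucleolus. RNA polymerase I, brought to the ribosomal DNA by the factors UBF (Ubtf), Rrn3 and the SL1 complex, transcribes a long precursor of ribosomal RNA, and small nucleolar ribonucleoproteins (snoRNPs) modify its bases and sugars. Assembly factors then fold, cut and export the precursors of the small and the large subunit. Growing cardiac muscle cells need more ribosomes, and much of the known control of the pathway in hypertrophy acts on the activity of the polymerase and its factors, which transcript levels do not report. The transcription factor Myc is a known activator of many genes of the pathway.

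Total counts ran from 45637881 to 56948370 per library, of which the 32 genes held 0.157% to 0.191%. The libraries differed in their share of mitochondrial-genome transcripts, at 6.19% (control 1), 11.7% (control 2), 4.61% (PE 1) and 4.76% (PE 2). Cardiomyocyte markers summed to 29168 and 27568 CPM in the controls and 31015 and 33879 CPM with PE (CPM, read counts scaled to a common library size with TMM factors), with 11 of 12 markers found and none of these at 0 in every library. Of the 11, Myl2 (adjusted p = 0.0217) and Myl3 (adjusted p = 0.0205) were called higher with PE and none was called lower. The list was mixed in direction, with log2 fold changes above 0 in 6 of the 11 and a median of 0.12. The lowest was Myh6, at -0.54. At an unadjusted p under 0.05, 4 were higher and 1 was lower, where 13.7% and 15.1% of all tested genes were found. Fibroblast markers were present too, and markers of several other cell types were lower with PE. The summed fibroblast level was 18805 and 16788 CPM in the controls and 10376 and 10305 CPM with PE. Of 8 tested markers 3 were called lower and none was called higher. Over all tested genes 8.3% were called lower and 7.39% higher, the background of each marker list here with all 4 libraries. Col3a1 alone went from 7841 and 6076 CPM in the controls to 2603 and 2843 CPM with PE. Log2 fold changes were above 0 in 3 of the 8, namely Dcn (0.50), Lum (0.11) and Tcf21 (0.038). For endothelium (5 of 7 lower) the sums were 220 and 218 CPM in the controls and 132 and 136 CPM with PE. For macrophages and leukocytes (4 of 10 lower) they were 203 and 225 CPM against 127 and 135 CPM. For mesothelium and epicardium (3 of 6 lower, 1 higher) they were 202 and 168 CPM against 99.8 and 110 CPM. In smooth muscle and pericyte markers 1 of 6 was higher, with sums of 760 and 571 CPM against 743 and 893 CPM. That marker was Cspg4, at 206 and 131 CPM in the controls and 334 and 444 CPM with PE. It was the only 1 of the 6 with a log2 fold change above 0, and the list's median was -0.28. With PE replicate 1 left out, 2 fibroblast, 1 endothelial, 0 macrophage and 1 mesothelial markers were called lower, and with PE replicate 2 left out 1, 1, 1 and 2. No marker found on these lists was at 0 in every library. The part of these cell types in the results below was not tested, and in bulk samples fewer cells of a type and less RNA per cell cannot be told apart.

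Of the 32 genes, 31 passed the filter on low counts and were tested. Nhp2 (ENSRNOG00000004247), a core protein of the box H/ACA snoRNP, was listed at 0 counts in all 4 libraries. A count of 0 allows up to 3 counts per library, for counting error only. The other core genes of that particle, Dkc1, Gar1 and Nop10, all had counts, and RefSeq names 5 pseudogenes after Nhp2. Whether its reads were lost to such copies or through the annotation was not tested, so the 0 does not show a silent gene. With PE, 3 of the 31 rose and none fell at an adjusted p under 0.05 (edgeR quasi-likelihood test, Benjamini-Hochberg over 15257 genes). These were Rrp12, Polr1e and Polr1c. The 3 are 9.68% of the members, against 7.39% of all tested genes called higher and 8.3% called lower, so the share that rose was near the background. The other 28 did not pass. At an unadjusted p under 0.05 there were 5 higher and 1 lower, where 13.7% and 15.1% of all tested genes were found. Log2 fold changes were above 0 in 24 of the 31, or 77.4%, against 49.3% of all tested genes, and their median was 0.17 against -0.0064 over all tested genes. Leaving out control replicate 1 gave a median of 0.055, against 0.015 over all tested genes, with 19 of the 31 above 0. Leaving out control replicate 2 gave 0.30, against 0.013 over all tested genes, with 27 of the 31 above 0. DESeq2 called the same 3 members and none lower, where it called 7.65% of its tested genes higher and 8.2% lower.

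**Figure D1:**
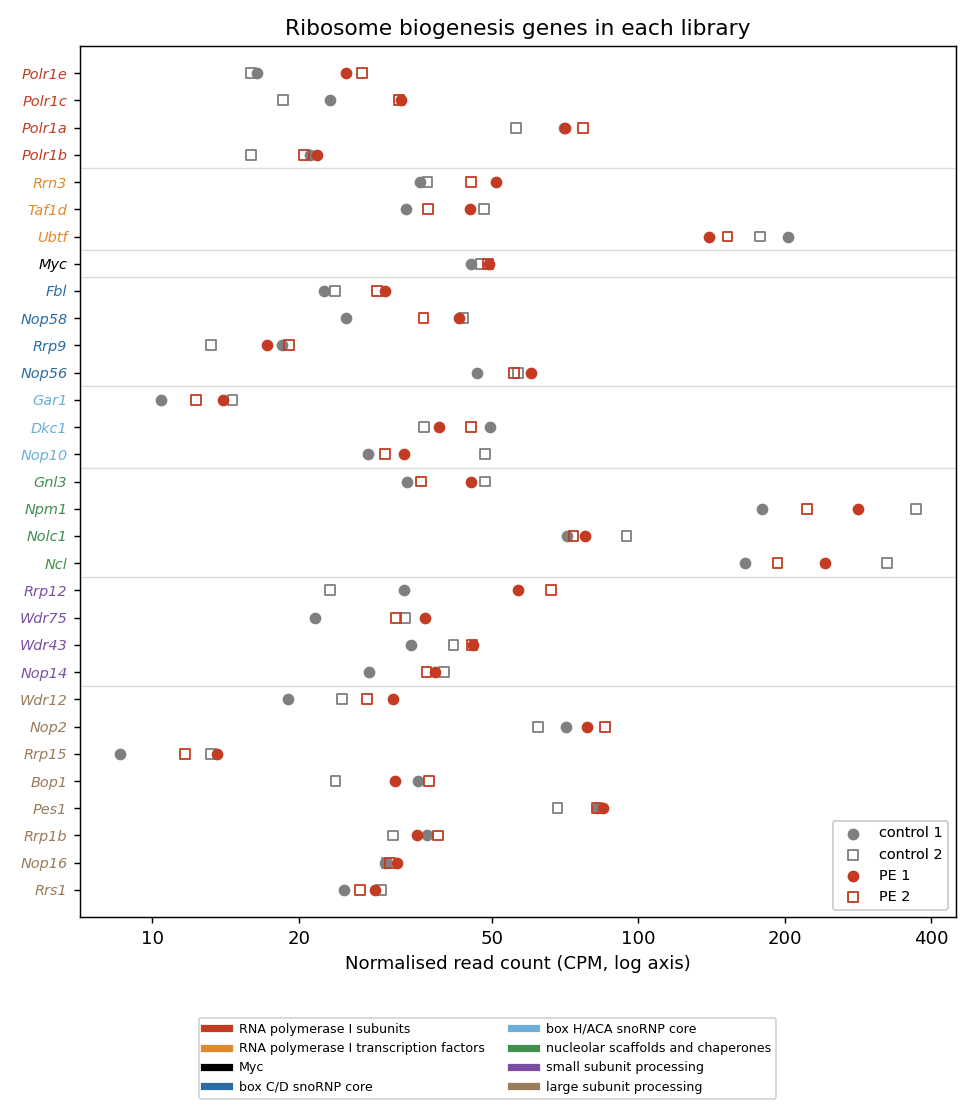
Normalised read count (CPM, log axis) of the 31 tested genes in each library, ordered by role and coloured by it; grey points are controls, red points PE, filled circles replicate 1 and open squares replicate 2. Both PE points of Rrp12, Polr1c and Polr1e lie to the right of both control points, while for Ncl and Npm1 the controls lie farther apart than the PE libraries and enclose them.

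Rrp12 (ENSRNOG00000048495), an export and maturation factor of the ribosomal subunits, had the largest rise of the members. In the controls it stood at 32.9 CPM (replicate 1) and 23.2 CPM (replicate 2), and with PE at 56.7 CPM (replicate 1) and 66.1 CPM (replicate 2); later pairs of values keep this order. The groups did not overlap, and the lower PE library was well above the higher control. The log2 fold change was 1.13 ± 0.20 (SE, n = 2 each), a 2.19-fold rise with a 95% interval of 1.60- to 2.98-fold (adjusted p = 0.00391). Its log2 fold change ranged from 0.90 to 1.41 when each library was left out in turn, and it passed in each of these 4 fits. Rrp12 was the only member for which this held.

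Polr1e and Polr1c are subunits of the polymerase itself. Polr1e (ENSRNOG00000012664), a subunit particular to RNA polymerase I, stood at 16.4 and 15.9 CPM in the controls and 25.0 and 27.0 CPM with PE. Polr1c (ENSRNOG00000019079), which RNA polymerase I shares with RNA polymerase III, stood at 23.2 and 18.6 CPM in the controls and 32.5 and 32.2 CPM with PE. In neither gene did the groups overlap. The log2 fold changes were 0.69 ± 0.17 for Polr1e (1.61-fold, 95% interval 1.23 to 2.10, adjusted p = 0.0225) and 0.63 ± 0.18 for Polr1c (1.55-fold, 1.17 to 2.04, adjusted p = 0.0402; n = 2 each). Leaving out either PE library ended both calls: the adjusted p of Polr1e became 0.207 (PE replicate 1 left out) and 0.328 (PE replicate 2 left out), and that of Polr1c 0.356 and 0.323. The log2 fold changes in those fits were 0.74 and 0.64 for Polr1e and 0.63 and 0.64 for Polr1c. With the replicate numbers fitted as a block, neither gene passed (adjusted p = 0.0964 for Polr1e and 0.13 for Polr1c). Polr1c also missed the threshold with library sizes alone (adjusted p = 0.058), a scaling under which 6.77% of all genes were called higher and 9.61% lower. In the authors' deposited table the same 3 members are below 0.05, with log2 fold changes of 1.13 for Rrp12, 0.69 for Polr1e and 0.63 for Polr1c.

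The bases before the start of the 3 genes that rose are shown because these are the members that rose. Each line gives the 250 bases before the start in RefSeq's GRCr8 annotation, 5′ to 3′ on the gene's strand, at chr1:250655319-250655568 (minus strand) for Rrp12, chr9:22233068-22233317 (plus) for Polr1c and chr5:64074873-64075122 (plus) for Polr1e. The counts themselves were made on another build. Capitals mark matches to 6 motifs searched on both strands.
Rrp12: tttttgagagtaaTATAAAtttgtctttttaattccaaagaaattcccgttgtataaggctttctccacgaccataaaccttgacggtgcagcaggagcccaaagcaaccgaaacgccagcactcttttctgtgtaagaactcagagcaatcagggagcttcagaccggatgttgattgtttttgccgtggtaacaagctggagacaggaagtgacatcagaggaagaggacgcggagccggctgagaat
Polr1c: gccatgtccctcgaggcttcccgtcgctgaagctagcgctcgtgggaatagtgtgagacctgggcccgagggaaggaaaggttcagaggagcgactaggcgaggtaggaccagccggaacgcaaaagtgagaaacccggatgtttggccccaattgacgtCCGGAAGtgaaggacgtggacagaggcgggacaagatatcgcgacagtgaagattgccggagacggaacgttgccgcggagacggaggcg
Polr1e: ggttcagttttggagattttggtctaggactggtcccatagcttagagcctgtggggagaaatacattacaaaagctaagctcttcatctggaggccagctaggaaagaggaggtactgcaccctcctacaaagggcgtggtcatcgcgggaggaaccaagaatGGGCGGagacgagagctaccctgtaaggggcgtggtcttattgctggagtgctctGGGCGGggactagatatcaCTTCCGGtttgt
The capitals in Polr1c are the ETS core CCGGAAG, and those in Polr1e are 2 copies of the GC box GGGCGG and 1 ETS core on the other strand. Rrp12 holds neither, and its capitals are a TATAAA match far from the start. RefSeq windows were found for 28 of the 32 genes, not for Bop1, Myc, Rrs1 and Wdr43. In the 250 bases, the ETS core occurred in 11 of the 28 (39.3%), against 13.6% of 11634 windows of tested genes and 7.27% of all 33469 windows. The 11 were Dkc1, Fbl, Gar1, Nhp2, Nolc1, Nop2, Nop58, Polr1c, Polr1e, Rrn3 and Rrp15. The GC box occurred in 21 (75.0%, against 56.0% of tested and 30.5% of all windows). The E-box CACGTG, the letters that Myc binds with its partner Max, occurred in 4 (14.3%, against 7.60% and 5.59%), namely Dkc1, Gnl3, Pes1 and Wdr75. With the 50 bases after the start included, it occurred in 8 (28.6%, against 8.72% and 6.42%), and Rrp12 was among them, with its match at offsets 3 to 8 after the start. TATAAA occurred in 2 (7.14%, against 6.93% and 12.9%). The CRE TGACGTCA and the AP-1 site TGACTCA occurred in none of the 28, against 2.62% and 3.19% of tested and 1.59% and 4.05% of all windows. The median GC content was 59.2% in the members and 59.6% in the tested genes. A match is a stretch of letters only, and no binding was measured here.

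The other subunits of RNA polymerase I did not pass. Polr1a, the largest subunit, stood at 70.3 and 56.1 CPM in the controls and 70.6 and 77.0 CPM with PE, and its log2 fold change was 0.22 with a 95% interval of -0.16 to 0.61 (adjusted p = 0.452). Polr1b, the other catalytic subunit, stood at 21.1 and 15.9 CPM against 21.8 and 20.5 CPM (0.19, -0.24 to 0.62, adjusted p = 0.57). All 4 polymerase subunits had positive values, with a median of 0.43. That median was 0.56 with control replicate 1 left out and 0.27 with control replicate 2 left out, where Polr1a was at 0.071 and Polr1b at 0.0068. All 4 were lower in control replicate 2 than in control replicate 1.

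None of the 3 initiation factors passed, and their values differed in sign. Ubtf (ENSRNOG00000020937), the HMG-box protein that binds and opens the ribosomal DNA, stood at 203 and 178 CPM in the controls and 140 and 153 CPM with PE. It was the only member with both PE libraries below both controls, which was so for 28.1% of all tested genes. Its log2 fold change was -0.38 ± 0.16, with a 95% interval of -0.74 to -0.021 (adjusted p = 0.15). Rrn3, which carries growth signals to the polymerase, stood at 35.6 and 36.8 CPM in the controls and 50.9 and 45.2 CPM with PE. Its groups did not overlap either, and its log2 fold change was 0.41 ± 0.16 (adjusted p = 0.125). Taf1d, a subunit of SL1, had overlapping groups and a log2 fold change of 0.0094 (-0.45 to 0.47). Both Ubtf (-0.47, adjusted p = 0.0053) and Rrn3 (0.44, adjusted p = 0.0292) passed once control replicate 2 was left out, a fit whose spread rests on the PE pair and which called 15.2% of all genes higher and 14.9% lower. Neither passed in the other 3 such fits, with adjusted p of 0.148 (control replicate 1 left out), 0.822 and 0.635 (PE replicate 1 and PE replicate 2) for Ubtf and 0.0543, 0.793 and 0.517 for Rrn3.

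**Figure D2:**
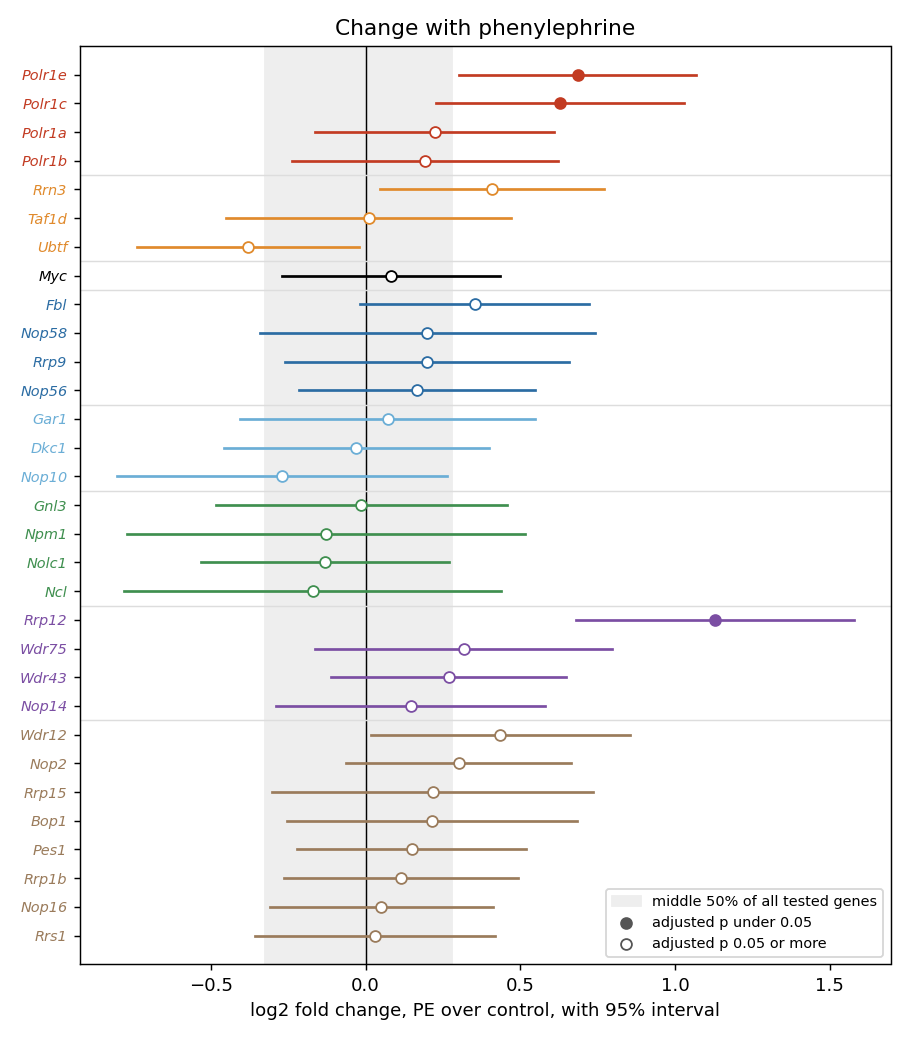
Log2 fold change of each gene (PE over control, x axis) with its 95% interval, by role; filled points passed at an adjusted p under 0.05 and the grey band is the interquartile range of all tested genes. Rrp12 lies at 1.13, Polr1e and Polr1c at 0.69 and 0.63, and 28 open points lie between -0.38 and 0.44.

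Myc (ENSRNOG00000004500) was almost level over the libraries at this time point. It stood at 45.3 and 47.5 CPM in the controls and 49.2 and 49.1 CPM with PE. Both PE libraries were above both controls by a small margin, the log2 fold change was 0.083 ± 0.16, and its 95% interval ran from 0.83- to 1.35-fold (adjusted p = 0.781). Over the 4 fits that left out a library it stayed between 0.055 and 0.12. The single time point of 24 h does not show an earlier change, had there been any.

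None of the 4 genes of the box C/D snoRNP, which methylates ribosomal RNA, passed. Fbl, the methyltransferase fibrillarin, stood at 22.5 and 23.7 CPM in the controls and 30.1 and 28.9 CPM with PE. Its groups did not overlap, and at 0.35 ± 0.17 its adjusted p was 0.195. The scaffold proteins Nop56 and Nop58 were at 0.17 and 0.20, and Rrp9, a protein of the U3 particle, was at 0.20, with overlapping groups in all 3. For Nop58 the control libraries themselves differed, at 25.1 and 43.7 CPM, and the PE libraries at 42.7 and 36.1 CPM lay between them.

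In the box H/ACA snoRNP, which converts uridines to pseudouridines, the 3 tested genes had overlapping groups and none passed. Dkc1, the pseudouridine synthase dyskerin, was at -0.031 (95% interval -0.46 to 0.40), Gar1 at 0.071 and Nop10 at -0.27. Nop10 stood at 27.8 and 48.3 CPM in the controls and 33.0 and 30.1 CPM with PE, and its value was 0.18 with control replicate 2 left out and -0.61 with control replicate 1 left out.

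The nucleolar scaffold and chaperone genes were the role group with negative values in all of its 4 genes and the widest gap between the controls. Ncl (ENSRNOG00000018273), nucleolin, stood at 166 and 325 CPM in the controls and 242 and 193 CPM with PE. Npm1 (ENSRNOG00000004616), nucleophosmin, stood at 180 and 372 CPM in the controls and 283 and 222 CPM with PE. In both genes the controls were about as far apart as a doubling, at 1.96-fold for Ncl and 2.07-fold for Npm1, and enclosed both PE libraries. Their log2 fold changes of -0.17 and -0.13 had the widest intervals of these 4 genes, -0.78 to 0.44 and -0.77 to 0.51, and neither passed (adjusted p = 0.736 and 0.818). With control replicate 1 left out both were called lower, Ncl at -0.57 and Npm1 at -0.55 (adjusted p = 0.00045 and 0.000646). With control replicate 2 left out both were called higher, at 0.40 and 0.49 (adjusted p = 0.027 and 0.00438). The direction for these genes thus differed with the control library used. Nolc1, a snoRNP chaperone, was at -0.13, and Gnl3, the GTPase nucleostemin, at -0.014, with overlapping groups.

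The small-subunit factors other than Rrp12 did not pass. Wdr75 was at 0.32, Wdr43 at 0.27 and Nop14 at 0.15 on the log2 scale. These are proteins of the processome that assembles on the early precursor. Wdr43 had both PE libraries, at 45.6 and 45.5 CPM, above controls of 34.0 and 41.6 CPM.

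All 8 large-subunit factors had positive values and none passed. Wdr12 stood at 19.0 and 24.5 CPM in the controls and 31.3 and 27.6 CPM with PE (0.44 ± 0.19, adjusted p = 0.158). Its partners in the PeBoW complex, Pes1 and Bop1, were at 0.15 and 0.22. Pes1 had both PE libraries above both controls, while Bop1 stood at 35.3 and 23.8 CPM in the controls and 31.5 and 37.1 CPM with PE, with overlap. Nop2, an rRNA methyltransferase, had both PE libraries above both controls, at 78.6 and 85.5 CPM against 71.1 and 62.1 CPM (0.30, adjusted p = 0.265). Rrp15, Rrp1b, Nop16 and Rrs1 lay between 0.030 and 0.22.

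Across all 31 genes, 12 had both PE libraries above both controls (38.7%, against 28.5% of all tested genes), 1 had both below and 18 overlapped. The 28 genes that did not pass had 95% intervals of the fold change that lay within 2-fold of no change in either direction. They were 90.3% of the 31 tested members, against 62.8% of all tested genes, called or not. Within 1.5-fold lay 12 of the 31, or 38.7%, against 25% of all tested genes. These intervals rest on 2 libraries a group and on a spread shared in part with other genes. Members and all tested genes were not matched for abundance, which can change the width of an interval.

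**Figure D3:**
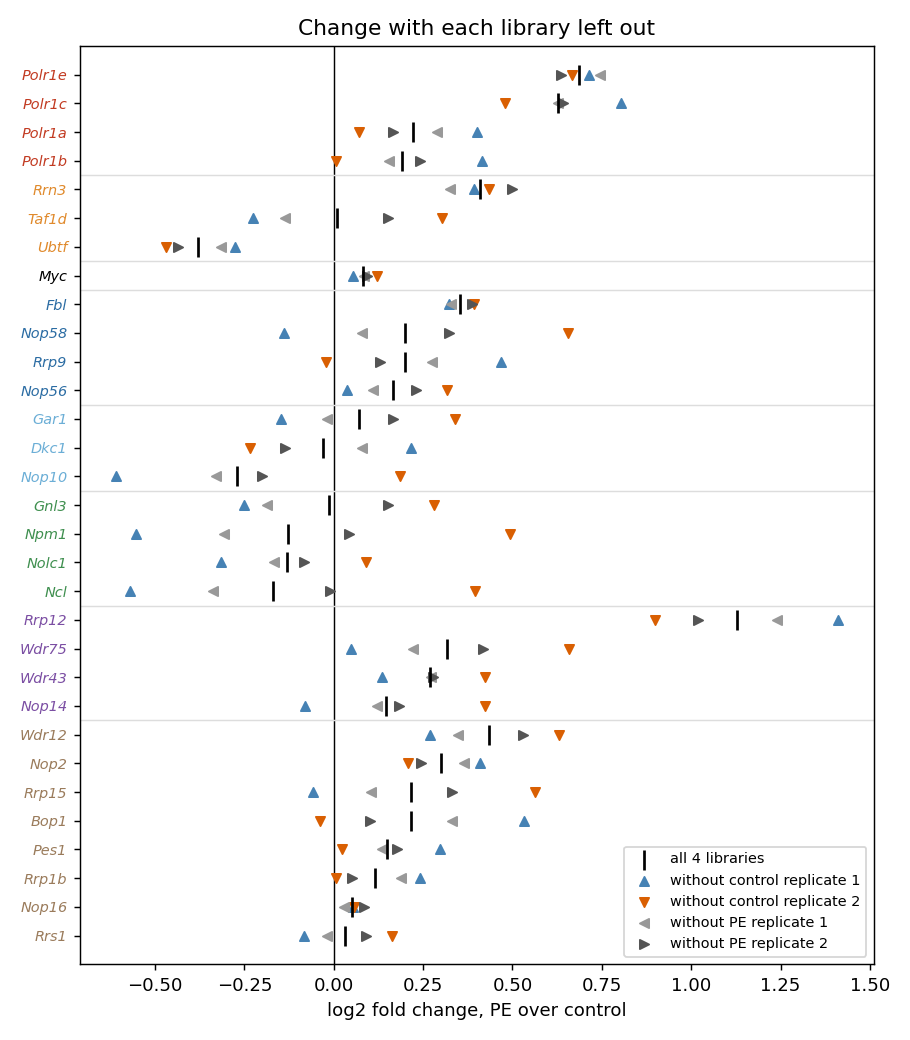
Log2 fold change (PE over control, x axis) of each gene with all 4 libraries (black bars) and with each library left out (triangles). Leaving out control replicate 1 or 2 moves Npm1 from -0.55 to 0.49 and Nop10 from -0.61 to 0.18, while Myc and Polr1e stay close to their bars.

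The largest variation among the members was between the 2 control libraries. The median absolute log2 difference between them was 0.40 for the members and 0.30 for all tested genes, whereas between the PE libraries it was 0.13 for the members and 0.16 for all. At least 1.5-fold higher in control replicate 2 were 6 members (Ncl, Npm1, Nop58, Nop10, Wdr75 and Rrp15), or 19.4%, against 10.7% of all tested genes, and none was as much lower, against 7.38%. No member differed 1.5-fold between the PE libraries, against 8.53% of all tested genes. By role, the median log2 difference of control replicate 2 over 1 was 0.75 in the scaffold and chaperone genes, 0.49 in the box H/ACA genes and -0.32 in the polymerase subunits. Control replicate 2 is also the library with 11.7% mitochondrial-genome transcripts, and the part of that in these differences was not tested. With mitochondrial genes left out of the scaling, the same 3 members were called, where 7.22% of genes were higher and 8.41% lower.

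The members that were higher in control replicate 2 tended to be lower in PE replicate 2. The replicate differences had opposite signs in the 2 groups for 28 of the 31 (90.3%), against 67.3% of all tested genes. Across the 31 genes, which are not independent and share the 4 libraries, the correlation of the 2 differences was -0.87 (Pearson) and -0.88 (Spearman). Across all tested genes it was -0.23 and -0.38. No library enters both differences.

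**Figure D4:**
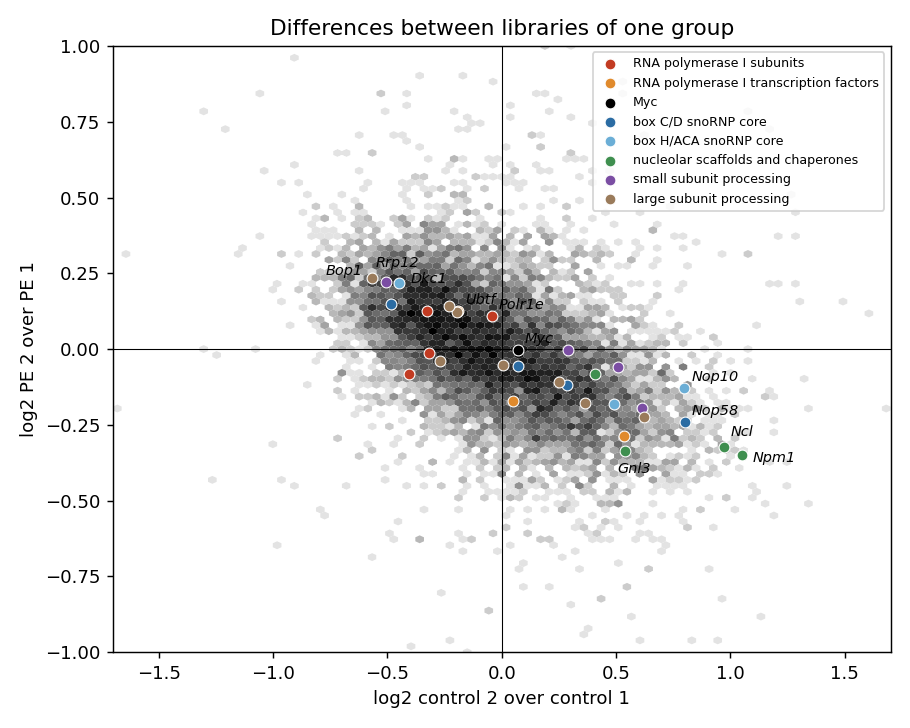
Log2 difference between the control libraries (x axis, replicate 2 over 1) against that between the PE libraries (y axis) for the 31 genes, coloured by role, over the density of all tested genes in grey, with genes beyond the axes not drawn. Ncl and Npm1 lie at the lower right and Bop1, Rrp12 and Dkc1 at the upper left.

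Leaving out either control kept the calls of Rrp12, Polr1c and Polr1e and added others, which differed with the control left out. With control replicate 1 left out, 7 members were called higher and 3 lower, where 14.8% and 15.3% of all genes were called. The 7 were Nop2, Bop1, Rrp9, Rrp12, Polr1a, Polr1c and Polr1e, and the 3 were Ncl, Npm1 and Nop10. With control replicate 2 left out, 12 were called higher and 1 lower, where the background was 15.2% and 14.9%. The 12 were Ncl, Npm1, Nop58, Nop14, Wdr12, Wdr43, Wdr75, Rrp12, Rrp15, Polr1c, Polr1e and Rrn3, and the 1 was Ubtf. In both fits the spread rests on the PE libraries. The sign of the log2 fold change differed between them in 14 of the 31, or 45.2%, against 29.7% of all genes. With either PE library left out, Rrp12 was the only member called, with a background of 3.83% higher in each fit and of 3.81% and 4.16% lower. Added over the 32 genes, the level was 1523 and 1914 CPM in the controls and 1831 and 1713 CPM with PE, with overlap. Without Ncl and Npm1, which were left out after their values were seen, it was 1177 and 1217 CPM in the controls and 1306 and 1297 CPM with PE.

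Copies elsewhere in the genome limit single values. RefSeq's GRCr8 annotation names pseudogenes after 14 of the 32 genes, with 20 for Npm1, 14 for Rrs1, 7 for Fbl, 6 for Pes1, 5 each for Ncl and Nhp2 and 1 for Rrp12. Where reads are shared with such copies, the levels of these genes are uncertain. None is named after Polr1c, Polr1e, Ubtf, Rrn3 or Myc.

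Other genes of the pathway, taken from 7 lists of 173 tested genes, had 3 higher (1.73%), 1 lower (0.578%) and 169 not passing, and a median log2 fold change of 0.10. Both shares were below those of all tested genes, 7.39% higher and 8.3% lower. Of 49 genes of the small subunit processome and its maturation, 1 rose (Bysl, at 34.4 and 27.1 CPM in the controls and 44.6 and 48.3 CPM with PE, 0.60 ± 0.18, adjusted p = 0.0475). Of 48 genes of large subunit assembly and export, 1 rose (Nip7, from 5.83 and 5.99 CPM to 9.76 and 9.09 CPM, 0.67 ± 0.19, adjusted p = 0.0412). Of 12 genes of snoRNP assembly, 1 rose. That was Naf1, an assembly factor of the box H/ACA particle, which went from 13.4 and 12.3 CPM to 20.0 and 19.9 CPM (0.63 ± 0.18, adjusted p = 0.0366). All 3 lay close to the threshold and none was called with PE replicate 1 left out (adjusted p = 0.303 for Bysl, 0.361 for Nip7 and 0.348 for Naf1), with PE replicate 2 left out (adjusted p = 0.45, 0.209 and 0.321), or with library sizes alone (adjusted p = 0.0691, 0.0546 and 0.0528). With the replicate numbers fitted as a block, none of the 3 passed (adjusted p = 0.149 for Bysl, 0.123 for Nip7 and 0.143 for Naf1). Bysl also missed the threshold with mitochondrial genes left out (adjusted p = 0.0501).

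None of 13 further polymerase I subunits and factors passed, nor any of 17 genes of the RNA exosome and trimming or of 22 genes of RNA polymerase III in edgeR. At an unadjusted p under 0.05 these lists had 0, 1 and 3 genes, against 13.7% of all tested genes higher and 15.1% lower. DESeq2 called 2 of the RNA polymerase III genes lower and none of the polymerase I or exosome lists. The most abundant of each were Baz2a at -0.18 and Polr2e at -0.013, Xrn2 at 0.092 and Exosc10 at 0.036, and Gtf3c1 at -0.20 and Bdp1 at -0.0041 on the log2 scale. Of 12 genes of the Myc network, 1 fell, where 8.3% of all tested genes were called lower. At an unadjusted p under 0.05 this list had 4 lower and 0 higher, where 15.1% and 13.7% of all tested genes were found. Its largest change was in Mycl, at -1.76, which did not pass (adjusted p = 0.0943). The gene that fell was Mxd1, which encodes a partner of Max that opposes Myc at E-boxes. It stood at 81.8 and 71.4 CPM in the controls and 43.6 and 39.6 CPM with PE, without overlap, and fell by 0.88 ± 0.17 on the log2 scale (adjusted p = 0.00531). Leaving out PE replicate 1 gave -0.95 and leaving out PE replicate 2 gave -0.81, and it missed the threshold in both (adjusted p = 0.0904 and 0.182). Of 10 markers of cycling cells 1 rose, where 7.39% of all tested genes were called higher. That was Ccnb1, at 4.57 and 5.35 CPM in the controls and 10.1 and 9.79 CPM with PE. Log2 fold changes were above 0 in 8 of the 10, with a median of 0.27 over the list. Mki67 (-0.30) and Mcm2 (-0.28) were below 0. The summed level of the 10 markers was 305 and 381 CPM in the controls and 352 and 346 CPM with PE, with overlap.

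**Figure D5:**
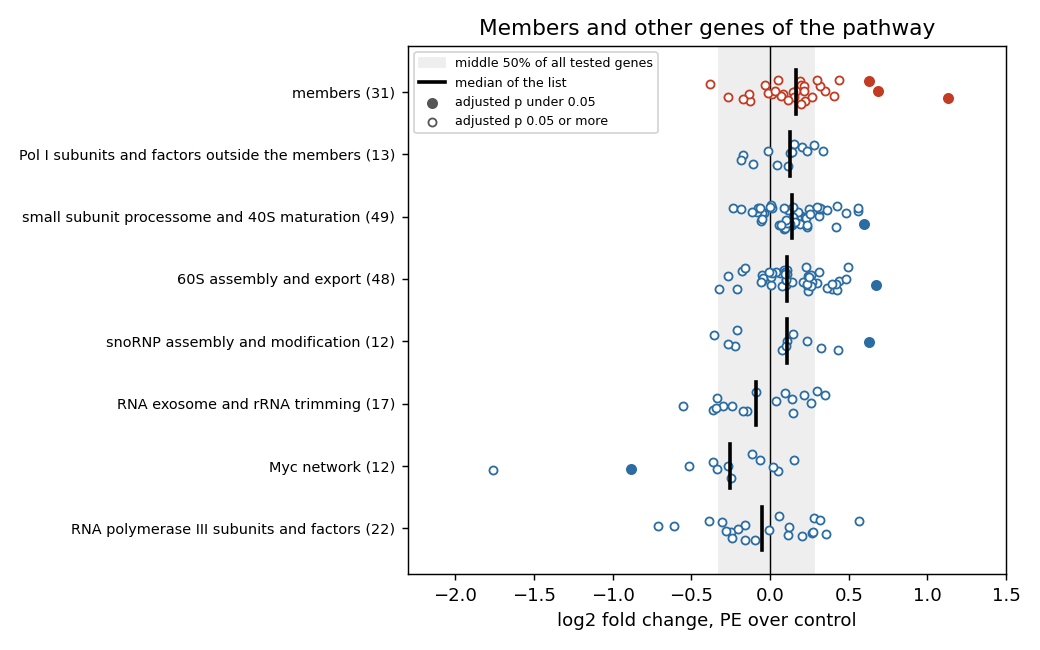
Log2 fold change (PE over control, x axis) of the 31 members (red) and of the 7 lists of other pathway genes (blue), with the number of tested genes in brackets; each point is a gene, filled where it passed, and black bars are medians. Most points of every list lie in or near the grey band, the interquartile range of all tested genes, and the Myc network has its median at -0.26.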

How the data were processed

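Raw counts per gene were deposited by the authors for 4 libraries. Per the submitters' processing notes, the tools were cutadapt 2.0, STAR 2.4.2a and featureCounts 1.6.4 and the genome build was Rnor_6.0. How they were set, including the strand option and the annotation release, is not given in the sources used here. Whether reads of overlapping or antisense genes were kept apart is therefore not known. The authors' deposited table gives, per the file headers, a mean normalized count (signal), a log2 fold change with its standard error, a Wald statistic (score), p-values before and after adjustment, and supplied gene names. All 20666 of its log2 fold changes equalled those of a DESeq2 1.42.0 fit of the counts within 1e-06.

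Counts were tested with edgeR 4.0.16 (limma 3.58.1, R 4.3.3) by the quasi-likelihood F test with TMM factors and the default filter (minimum count 10, minimum total 15), which kept 15257 genes with 2 residual degrees of freedom. Standard errors were derived from that fit as the absolute log2 fold change over the square root of its F value. The 95% intervals used the total degrees of freedom, the 2 residual plus about 8.1 prior ones shared across genes. Total counts were 51917449 and 45637881 in the controls and 56948370 and 48075810 with PE. Replicates differed by more than sampling noise (chi-square per degree of freedom 161 and 23.4). The fit was tested on simulated data. All 32 members are named; of other lists, up to 3 genes past the threshold, or the 2 most abundant where none passed. Members and lists were chosen with earlier results of these data known, as were the motifs. Alternatives were DESeq2, RLE factors, no filter, mitochondrial genes left out, a replicate block and leaving out each library; a crossed block and library sizes alone were added after seeing the data. Promoter windows came from RefSeq (GRCr8).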

Additional observations from a re-analysis of the deposited data

How the results depend on the processing

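DESeq2, RLE factors, no filter and leaving out mitochondrial genes each kept the 3 member calls. Of the other pathway genes, DESeq2 called 4 higher and 3 lower, no filter 5 higher and 3 lower, and leaving out mitochondrial genes 2 higher (Bysl was lost) and 2 lower. Library sizes alone, chosen after seeing the data, gave 0 higher and 3 lower, and put Rrs1 at -0.014 and Taf1d at -0.033.

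Whether the replicate numbers pair the samples is not stated. The replicate differences of the groups correlated at -0.23 across genes, which cannot decide it with only 2 pairs. With the replicate block, 1 member was higher (Rrp12, with 5.98% of all genes higher and 6.89% lower), 0 other pathway genes were higher, 1964 genes changed, the adjusted p was 0.0964 for Polr1e and 0.13 for Polr1c, and Gnl3 was at 0.00067. The crossed block, also chosen after seeing the data, called 5 members higher and 1 lower, 16 other pathway genes higher and 6 lower, and 4677 genes in all (14.9% of all genes higher and 15.8% lower).

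Leaving out each library in turn gave 1 to 12 members higher, 0 to 3 lower, a member median of 0.055 to 0.30, 1205 to 4755 genes changed, and 0 to 32 other pathway genes higher and 0 to 15 lower. The log2 fold change crossed 0 in Ncl (-0.57 to 0.40), Npm1 (-0.55 to 0.49), Nop58 (-0.14 to 0.66), Nop14 (-0.081 to 0.42), Nop10 (-0.61 to 0.18), Bop1 (-0.039 to 0.53), Rrs1 (-0.084 to 0.16), Rrp9 (-0.021 to 0.47), Rrp15 (-0.057 to 0.56), Taf1d (-0.23 to 0.30), Dkc1 (-0.24 to 0.22), Gar1 (-0.15 to 0.34), Gnl3 (-0.25 to 0.28) and Nolc1 (-0.31 to 0.089). Fewer libraries leave the spread to the other pair, whose replicates are assumed to vary like the lone one; other causes of these shifts were not tested. With 2 libraries a group, small changes cannot be told from none.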
